A study of Arabidopsis thaliana with 16 samples.

Results

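The 101 genes described here were low 3 h after the proteasome inhibitor MG132 was given to Arabidopsis thaliana Col-0 seedlings and were back near the untreated level at 24 h. They were chosen by their measured values from 15299 eligible nuclear genes, out of 33602 genes counted. Levels were read counts scaled to a common library total (CPM, count divided by the total and multiplied by 1e6), and a gene was eligible with an untreated mean of at least 5 CPM. A member's group mean of log2(CPM + 1) lay at least 1 below untreated at 3 h and within 0.4 of untreated at 24 h. Of the 360 eligible genes that met the limit at 3 h, 257 were below the 24 h band, 101 were within it and 2 were above it. The 3 h and 24 h values of the members are therefore a description of what the rule selected, and no test of them is offered.

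RNA was sequenced from whole seedlings grown for 5 days in liquid half-strength MS medium with sucrose under constant light. The groups were untreated rpn10-1 (2 libraries), untreated rpn12a-1 (2 libraries), untreated Col-0 (4 libraries), Col-0 given 100 µM MG132 for 3 h (4 libraries) and Col-0 given 100 µM MG132 for 24 h (4 libraries). The mutant alleles affect RPN10 and RPN12a, subunits of the regulatory particle that hands ubiquitylated proteins to the proteasome core. The untreated seedlings were harvested at the 5-day mark, whereas MG132 was added when the medium was renewed, so that the inhibitor, its solvent, fresh medium and elapsed time cannot be told apart. The accession in which the mutants arose is not given in the labels, each mutant is represented by 1 allele, and nothing states that replicates were grown as separate cultures, so the tests see the variation among these libraries, which may be technical.

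Many of the members with the largest falls belong to the phosphate starvation response. In plants short of phosphate, PHR1 and its relatives bind a short promoter element named P1BS and induce phosphatases, phosphate transporters and enzymes that replace phospholipids with sulfolipid and galactolipid. SPX proteins bind inositol pyrophosphates when phosphate is plentiful and then hold PHR1 back, and the genes for several SPX proteins are themselves induced by starvation, so that their transcripts are used as a sensitive reading of phosphate status in seedlings.

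The upstream sequences of 3 members are shown because the P1BS letters, GNATATNC with N for any base, stood in them; in each sequence the match is in capitals. They come from the RefSeq copy of the TAIR10.1 genome, end at the base before the start of the longest annotated transcript and read 5′ to 3′ along the gene. PS2 (AT1G73010), a pyrophosphatase, is on the minus strand and its stretch is chr1:27466349-27466598. SRG3 (AT3G02040), a glycerophosphodiester phosphodiesterase also called GDPD1, is on the minus strand with the stretch chr3:350011-350260. PAP14 (AT2G46880), a purple acid phosphatase, is on the minus strand with the stretch chr2:19266447-19266696; another annotated transcript of PAP14 starts within the last bases of that stretch.
PS2: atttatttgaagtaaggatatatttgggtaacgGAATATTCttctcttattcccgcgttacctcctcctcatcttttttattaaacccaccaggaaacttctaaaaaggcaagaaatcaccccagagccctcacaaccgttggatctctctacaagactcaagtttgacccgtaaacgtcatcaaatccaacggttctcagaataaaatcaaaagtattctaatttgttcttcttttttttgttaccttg
SRG3: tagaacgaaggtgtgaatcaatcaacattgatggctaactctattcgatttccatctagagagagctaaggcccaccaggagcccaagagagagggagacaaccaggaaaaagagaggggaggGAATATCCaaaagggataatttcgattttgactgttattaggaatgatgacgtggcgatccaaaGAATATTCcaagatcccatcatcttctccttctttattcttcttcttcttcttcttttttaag
PAP14: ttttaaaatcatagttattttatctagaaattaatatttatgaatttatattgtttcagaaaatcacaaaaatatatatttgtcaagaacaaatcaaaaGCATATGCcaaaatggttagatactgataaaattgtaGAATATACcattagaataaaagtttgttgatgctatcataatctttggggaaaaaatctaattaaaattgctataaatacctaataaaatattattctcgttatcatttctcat

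Shorter stretches show the same letters in other members. They belong to PPCK1 (chr1:2752071-2752123, plus strand), the kinase of phosphoenolpyruvate carboxylase; AT1G08310 (chr1:2618590-2618646, plus strand), an alpha/beta-hydrolase; XTH19 (chr4:14830342-14830401, minus strand), a xyloglucan-remodelling enzyme; and BGAL4 (chr5:23003830-23003889, plus strand), a beta-galactosidase. The match nearest the start of SPX1 (chr5:6802293-6802322, plus strand) and of SQD1 (chr4:15935376-15935405, plus strand) lay just inside the transcript, and 30 bases around it are given.
PPCK1: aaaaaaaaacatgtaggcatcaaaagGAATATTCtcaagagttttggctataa
AT1G08310: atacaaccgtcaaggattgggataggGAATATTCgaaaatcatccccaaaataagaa
XTH19: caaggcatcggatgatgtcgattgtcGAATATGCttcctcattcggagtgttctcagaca
BGAL4: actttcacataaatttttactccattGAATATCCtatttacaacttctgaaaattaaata
SPX1: cagagaaaaaaGGATATTCtaattagaaac
SQD1: ggaataagtaaGAATATGCtttgggcatat

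Total counts ran from 6646134 to 21762565 per library. RPN10 stood at 21.9 CPM in both rpn10-1 libraries, against 96.8 to 124 CPM in untreated Col-0, and RPN12a stood at 41.9 and 50.5 CPM in rpn12a-1, against 73.0 to 92.6 CPM in untreated Col-0. Markers of root, leaf and the stomatal lineage were detected in every library, with summed levels of root markers from 84.7 to 512 CPM. The summed level of the 25 leaf and photosynthesis markers was 89868 to 114111 CPM in untreated Col-0, 74383 to 98485 CPM at 3 h and 58074 to 75123 CPM at 24 h, and the part of this difference in the results was not tested. The 2 rpn10-1 libraries stood apart from each other, with a chi-square of 73.7 per degree of freedom between their counts, where the other pairs within a group and set ran from 8.17 to 17.2. In rpn10-1 replicate 2 plastid genes took 3.03% and mitochondrial genes 1.86% of counts and the root markers summed to 512 CPM, against 1.24%, 0.0547% and 217 CPM in replicate 1. In bulk RNA, fewer cells of a type and less RNA per cell cannot be told apart. According to the labels, 8 libraries, replicates 3 and 4 of each Col-0 group and both rpn12a-1 libraries, include a technical replicate, called the note below; what else set them apart is not stated. In untreated Col-0 the libraries with the note and those without it differed at least 2-fold in 26 of 101 members (25.7%). The share was 428 of 15299 eligible genes (2.80%), and 25 of the 26 members were higher in the libraries without the note. The rule used these same untreated values, and a gene could enter through 1 set alone. The shares are therefore a description and not an independent trait of the members.

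Among all 101 members the untreated level had a median of 32.6 CPM and ran from 5.11 to 369 CPM. The 3 h difference ran from -2.92 to -1.002 on the log2(CPM + 1) scale with a median of -1.19, against a median of -0.04 over eligible genes. At 24 h the members' differences ran from -0.39 to 0.38 with a median of -0.16, where eligible genes had a median of 0.12. That shift of 0.12 came with scaling by library totals. It was 0.01 with TMM-scaled library sizes, under which 73 genes met the rule, 72 of them members. In 83 members every 3 h library lay below every untreated library, which held for 9.15% of the genes tested. The edgeR quasi-likelihood F-test, with Benjamini-Hochberg adjustment over 21205 genes and a threshold of 0.05 used for every call here, called 100 members lower at 3 h (background 9.24%) and 9 lower at 24 h (background 13.8%); the rule used both contrasts, and nothing is read from these counts.

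**Figure D1:**
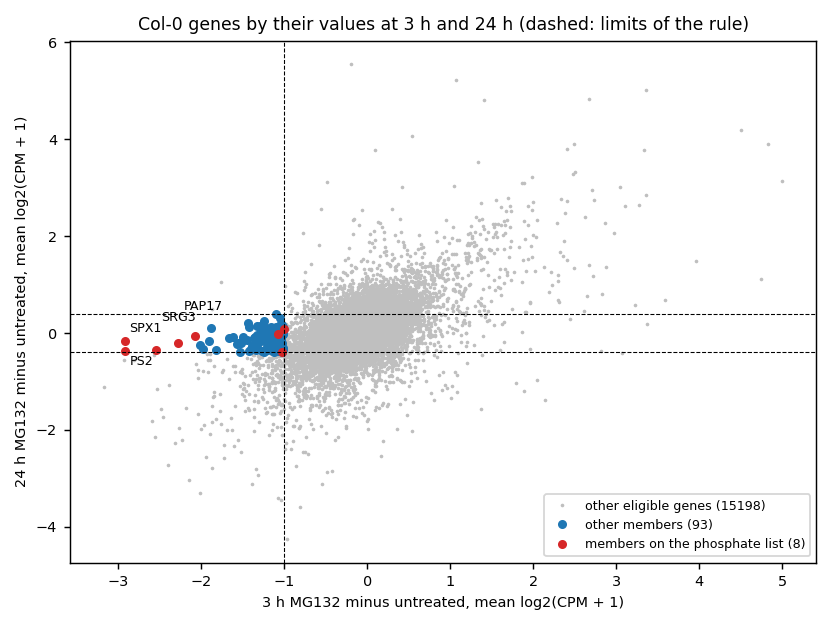
Each point is 1 of 15299 eligible genes, placed by the difference of its mean log2(CPM + 1) from untreated Col-0 at 3 h (horizontal) and 24 h (vertical); dashed lines are the limits of the rule. The 8 members on the phosphate list (red) include the 5 with the largest falls, and the other 93 members (blue) crowd towards the 3 h limit of -1. The phosphate list was written with earlier results of these data known.

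The edges of the rule fell within a continuous range. SPX2, PLPB and AT4G13495 were just inside the 3 h limit at -1.002, -1.01 and -1.01, and G6PD1, AT3G49790 and PFA-DSP2 were just outside at -0.9997, -0.99 and -0.99. At the lower edge of the 24 h band AT2G27770, AT4G32480 and SQD1 were inside at -0.39, -0.39 and -0.39, and AT1G75900, NdhT and CALS1 outside at -0.41, -0.41 and -0.41. At the upper edge AT1G23140, ABCF5 and AT3G15760 were inside at 0.38, 0.31 and 0.25, and the 2 genes outside were SPX3 at 0.50 and the glutaredoxin gene GRXS13 at 1.05. At the level limit AT1G72920, AT4G12090 and AT4G01460 were inside at 5.11, 6.16 and 6.16 CPM, and AT5G67430, AT1G60590 and AT5G64780 outside at 4.58, 4.45 and 4.39 CPM.

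The 5 members with the largest falls, SPX1, PS2, PEPC1, SRG3 and PAP17, were all on a list of 22 phosphate starvation genes, of which 20 were tested and 8 were members. Of its genes 19 were eligible, and over all eligible genes 101 of 15299 were members. The list was written with earlier results of these data known, so this overlap is a description and no independent support. SPX1 (AT5G20150, chr5:6802282-6803655, plus strand), which encodes a phosphate-dependent inhibitor of PHR1, had 188, 245, 82.5 and 82.5 CPM in untreated seedlings, 30.05, 34.3, 8.13 and 8.81 CPM at 3 h and 280.3, 224, 57.4 and 55.7 CPM at 24 h, each in replicates 1 to 4. All 3 h libraries were below all untreated ones, and the 24 h libraries spanned a somewhat wider range than the untreated ones. The 3 h mean was -2.92 from untreated on the log2(CPM + 1) scale, a level 7.58-fold lower, and the 24 h mean was -0.16. SPX2 (AT2G26660), a second SPX-domain protein, was among the smallest falls, with 35.98, 44.9, 26.5 and 26.001 CPM untreated, 20.6, 19.8, 13.4 and 11.1 CPM at 3 h and 52.3, 42.2, 25.9 and 24.3 CPM at 24 h.

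The phosphatases and phosphodiesterases of the list fell most after SPX1. PS2, the pyrophosphatase, had 139, 211, 14.7 and 14.9 CPM in untreated libraries, 14.04, 14.4, 2.11 and 2.18 CPM at 3 h and 219.8, 132.4, 9.02 and 8.03 CPM at 24 h. Replicates 1 and 2, without the note, were about an order of magnitude above replicates 3 and 4 both untreated and at 24 h, so that the lowest untreated library barely exceeded the highest 3 h library and the 3 h and 24 h libraries overlapped. Within the set without the note the 3 h difference of PS2 was -3.50 and the 24 h difference -0.0031; within the set with the note they were -2.33 and -0.73. PEPC1 (AT1G17710), which despite its symbol is a phosphatase of phosphoethanolamine and phosphocholine, had 70.8, 121, 3.997 and 4.07 CPM untreated, 5.496, 7.81, 0.602 and 1.09 CPM at 3 h and 95.7, 63.1, 2.98 and 2.46 CPM at 24 h. The same split between the sets is plain in it, and 3 h libraries were lowest within each set. SRG3 had 127, 179, 50.9 and 46.2 CPM untreated, 18.5, 22.5, 15.6 and 12.5 CPM at 3 h and 156, 118, 41.6 and 40.1 CPM at 24 h, with no overlap between 3 h and either other time. PAP17 (AT3G17790), a purple acid phosphatase, had 222, 276, 83.4 and 81.9 CPM untreated, 45.8, 74.8, 18.1 and 19.1 CPM at 3 h and 236, 236, 64.6 and 96.3 CPM at 24 h. Its differences were nearly equal in both sets, -2.06 and -2.10 at 3 h and -0.07 and -0.07 at 24 h. SRG3 and PAP17 each share bases with a gene on the other strand, whose reads cannot be told apart from theirs with a kit that does not mark strand. The same limit holds for UGP3, PPCK1, BGAL4, ATSPS4F, BMY3, ACHT5, AT1G08310, AT4G23000 and ORP4C, whose levels are given below.

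PAP14, a purple acid phosphatase outside the list, was a member on the strength of 1 set. It had 34.9, 51.7, 0.222 and 0.136 CPM untreated, 1.67, 3.04, 0 and 0 CPM at 3 h and 26.6, 22.8, 0.07104 and 0.506 CPM at 24 h. Replicates 3 and 4 were at or near 0 at every time, so its fall was measured in replicates 1 and 2 alone.

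Lipid and transport genes of the same pathway were members with smaller differences. SQD1 (AT4G33030), which makes the sulfoquinovose head group of sulfolipid, had 456, 575, 225 and 219 CPM untreated, 219, 282, 102 and 117 CPM at 3 h and 379, 289.7, 171 and 236 CPM at 24 h; the untreated libraries with the note and the 3 h libraries without it overlapped. UGP3 (AT3G56040), the plastid enzyme that supplies UDP-glucose for sulfolipid, had 213, 249, 107 and 118 CPM untreated, 48.8, 47.4, 44.5 and 61.98 CPM at 3 h and 313, 245, 79.1 and 83.5 CPM at 24 h. All its 3 h libraries were lowest; it is not on the list. G3Pp1 (AT3G47420), annotated as a putative glycerol-3-phosphate transporter and also outside the list, had 227, 272, 117 and 116 CPM untreated, 56.2, 84.6, 29.2 and 28.9 CPM at 3 h and 220.3, 207, 103 and 114 CPM at 24 h, without overlap between 3 h and untreated. PHO1;H1 (AT1G68740), of the PHO1 family of phosphate exporters and named after its values were seen, stood at 56.8, 54.3, 36.1 and 31.02 CPM untreated, 26.9, 26.9, 15.6 and 13.9 CPM at 3 h and 60.8, 47.2, 37.8 and 30.8 CPM at 24 h. PPCK1 (AT1G08650) had 66.8, 79.3, 41.6 and 35.2 CPM untreated, 24.3, 24.1, 16.9 and 15.1 CPM at 3 h and 90.2, 71.9, 26.1 and 21.4 CPM at 24 h, again with every 3 h library below every untreated one.

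**Figure D2:**
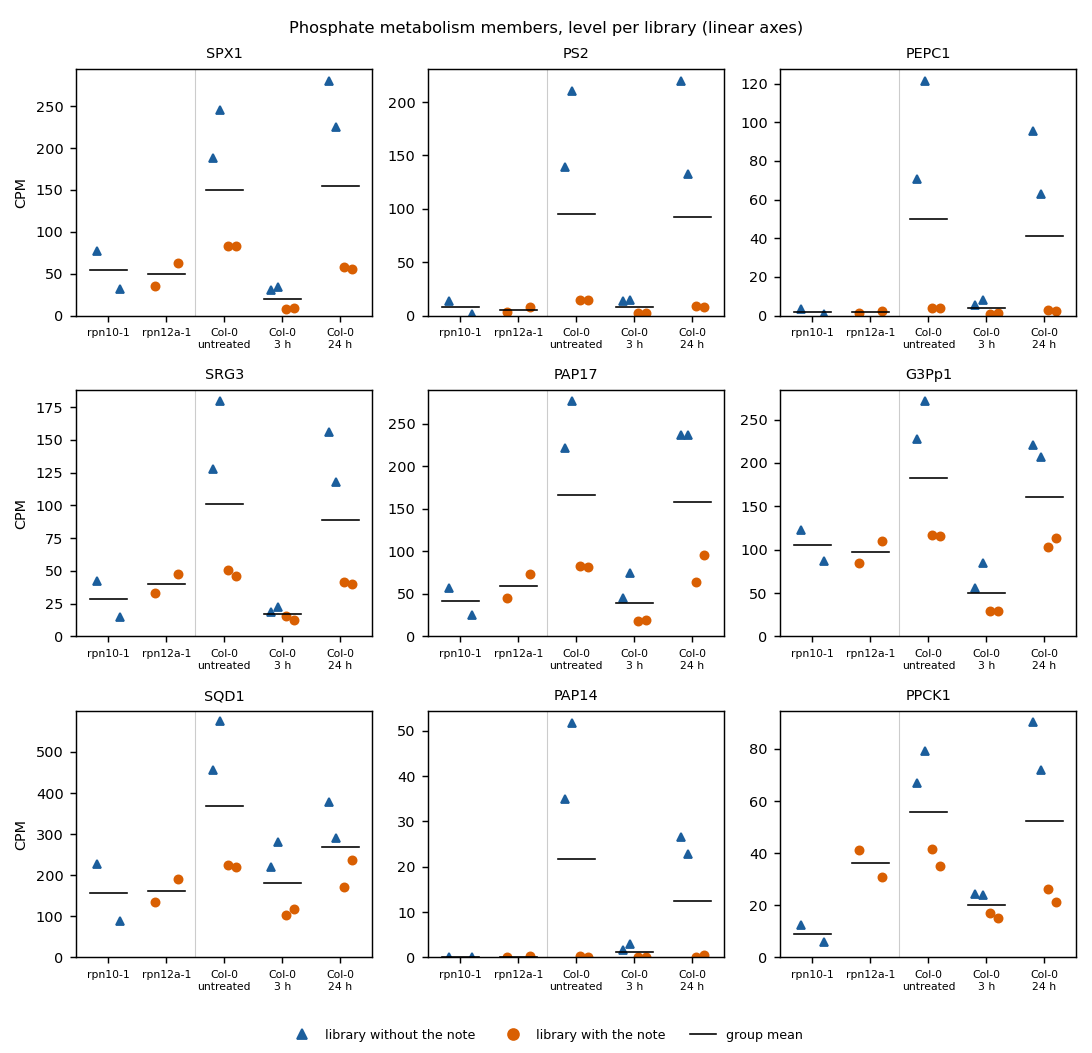
Level in CPM (vertical, linear, from 0) of 9 members of phosphate metabolism in each library, with mutants left of the Col-0 time series; triangles are libraries without the technical replicate note, circles libraries with it, and lines group means. Untreated and 24 h libraries without the note stand above those with it in all 9 genes, and the 3 h libraries are the lowest of the Col-0 libraries within each set in all 9 as well; PAP14 is near 0 in every library with the note.

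The list's 12 tested genes that were not members were left out by the rule on the same untreated, 3 h and 24 h values, so their calls are a description and no independent support. Of these, 6 were called lower at 3 h and none higher, against 9.24% and 8.68% of all genes tested, with a median log2 fold change of -0.81. The 3 with the smallest p are given here. MGDC fell by 4.18 ± 0.52 (log2 fold change ± SE, adjusted p = 5.29e-05) and MGD2 fell by 2.61 ± 0.28 (adjusted p = 1.20e-05) in edgeR's test; both make galactolipid. SQD2, the next enzyme after SQD1 in sulfolipid synthesis, fell by 1.91 ± 0.27 (edgeR adjusted p = 0.000168). MGDC had 112, 154, 7.85 and 6.25 CPM untreated, 5.08, 7.68, 0.602 and 0.9996 CPM at 3 h and 73.9, 54.6, 2.27 and 2.82 CPM at 24 h. In SQD2 the levels were 308, 413, 85.7 and 78.5 CPM untreated, 58.8, 62.7, 29.04 and 36.3 CPM at 3 h and 284, 219.7, 60.9 and 66.2 CPM at 24 h, and no 3 h library reached an untreated one. At 24 h MGDC and MGD2 had log2 fold changes of -1.36 ± 0.39 (edgeR adjusted p = 0.0207) and -1.31 ± 0.25 (adjusted p = 0.00156). Both 24 h calls were lost without the library set term, at adjusted p = 0.457 and 0.123, and that of MGDC also with DESeq2 (0.0964) and without 24 h replicate 2 or 3 or untreated replicate 2 (0.0548 to 0.0992).

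The 2 non-coding RNAs of the list, which act as decoys for miR399, did not pass the test at 3 h; these were singled out after their values were seen. IPS1 had 105, 141, 4.07 and 2.31 CPM untreated, 82.4, 94.1, 1.204 and 3.36 CPM at 3 h and 72.5, 63.1, 2.77 and 2.46 CPM at 24 h, and its log2 fold change at 3 h was -0.43 ± 0.40 (edgeR adjusted p = 0.502). AT4, listed as AT5G03545, had 323, 387, 131.6 and 104 CPM untreated, 298, 361, 79.9 and 103 CPM at 3 h and 150.2, 199, 80.8 and 103 CPM at 24 h, with a 3 h log2 fold change of -0.20 ± 0.36 (edgeR adjusted p = 0.75). Over all libraries, the untreated and 3 h ranges overlapped for both. The transporter gene PHT1;1 (0.24 ± 0.35) and the phosphatase gene PAP22 (0.20 ± 0.44) were likewise not called at 3 h, and both changed sign without untreated replicate 4.

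The lists of growth genes held 2 members among 51 tested genes of cell wall loosening, 1 among 33 early auxin genes and 1 among 22 brassinosteroid genes. Of those tested genes 43, 21 and 20 were eligible, and over all eligible genes 101 of 15299 were members. At 1 or 2 members per list, nothing is read from these counts. EXPA1 (AT1G69530), a wall-loosening expansin that the cytokinin list also holds, had 313, 344, 298 and 334 CPM untreated, 144, 176, 98.3 and 113 CPM at 3 h and 281, 285, 258 and 348 CPM at 24 h. The untreated libraries varied little between sets, and the 3 h libraries were all below them. XTH19 (AT4G30290) had 85.8, 49.3, 75.7 and 43.4 CPM untreated, 30.9, 29.6, 19.9 and 15.8 CPM at 3 h and 39.3, 38.1, 96.8 and 70.2 CPM at 24 h. Its return was uneven, at -0.73 in the set without the note and 0.51 in the set with it. IAA29 (AT4G32280), an auxin-induced repressor of auxin signalling, had 4.88, 5.14, 9.105 and 8.76 CPM untreated, 2.51, 1.46, 2.86 and 1.54 CPM at 3 h and 6.87, 5.18, 5.896 and 7.37 CPM at 24 h. BEE2 (AT4G36540), a brassinosteroid-induced bHLH factor, had 26.1, 28.9, 45.6 and 48.1 CPM untreated, 18.1, 13.5, 15.8 and 22.99 CPM at 3 h and 44.4, 32.1, 34.9 and 31.3 CPM at 24 h. In IAA29 and BEE2 the untreated libraries with the note were the higher ones, opposite to the phosphate genes. HBI1 (AT2G18300), a bHLH factor that promotes cell elongation and was named after its values were seen, had 35.1, 37.2, 55.1 and 69.04 CPM untreated, 22.3, 15.9, 23.2 and 28.3 CPM at 3 h and 60.04, 41.5, 54.4 and 45.4 CPM at 24 h, without overlap between 3 h and untreated.

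Genes of these lists that were not members are described by the same tests, in which 9.24% of all genes were called lower and 8.68% higher at 3 h, and 13.8% lower and 12.6% higher at 24 h. Outside the 1 member, 19 of 32 tested early auxin genes were called lower at 3 h and none higher, and 24 were lower and none higher at 24 h, with medians of -0.78 and -0.94 in log2 fold change. Outside the 2 members, 10 of 49 tested wall-loosening genes were lower and 2 higher at 3 h, and 17 were lower and 4 higher at 24 h. Among 21 brassinosteroid genes other than BEE2, 7 were lower at 3 h and none higher, and at 24 h 7 were lower and 2 higher. No member was on the lists for gibberellin, nitrate, rapid touch and wound response, light signalling, meristems, auxin synthesis and transport, or water and ion channels. These lists held 14 to 65 eligible genes each. At 101 members among 15299 eligible genes, none would often be found on a list of that size, so nothing is read from the absence.

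The sugar starvation list held 2 members, BGAL4 and TPS8, among its 27 tested genes, of which 23 were eligible. Nothing is read from this count. BGAL4 (AT5G56870) had 189.6, 122, 401 and 232 CPM untreated, 63.4, 69.3, 122 and 219.8 CPM at 3 h and 106, 122, 318 and 275 CPM at 24 h, with overlap of 3 h and untreated libraries across sets. TPS8 (AT1G70290), a trehalose-phosphate synthase-like protein, had 46.2, 47.4, 62.2 and 50.8 CPM untreated, 12.9, 15.2, 23.3 and 33.4 CPM at 3 h and 47.7, 38.9, 58.04 and 56.2 CPM at 24 h, and its 3 h libraries did not reach the others. Other members of starch and sucrose metabolism, named after their values were seen, were ATSPS4F, a sucrose-phosphate synthase with 51.9, 60.9, 29.6 and 25.2 CPM untreated, 16.8, 11.2, 17.002 and 18.7 CPM at 3 h and 87.99, 50.2, 29.7 and 21.8 CPM at 24 h, and BMY3 of the beta-amylase family with 80.3, 116, 61.3 and 52.6 CPM untreated, 24.5, 26.6, 26.5 and 28.6 CPM at 3 h and 68.3, 64.3, 62.01 and 74.3 CPM at 24 h. All 3 h libraries of both genes were below their untreated libraries. Of the 25 tested sugar starvation genes that were not members, 5 were called lower and 1 higher at 3 h, and 9 lower and 2 higher at 24 h, against the shares of all genes given above.

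The remaining members with large falls had varied roles. AT2G30540, a protein of the thioredoxin superfamily, had 13.3, 13.5, 10.14 and 12.97 CPM untreated, 3.17, 2.91, 1.505 and 1.999 CPM at 3 h and 14.6, 10.8, 7.81 and 8.89 CPM at 24 h. ACHT5 (AT5G61440), an atypical chloroplast thioredoxin, had 24.7, 23.995, 15.7 and 13.5 CPM untreated, 6.45, 5.95, 4.06 and 7.82 CPM at 3 h and 14.3, 15.7, 17.7 and 17.1 CPM at 24 h. AT1G08310 had 29.997, 30.7, 6.07 and 3.87 CPM untreated, 4.5998, 4.37, 1.66 and 1.27 CPM at 3 h and 41.6, 35.4, 4.83 and 3.904 CPM at 24 h. AT2G30540 and ACHT5 fell without overlap in all replicates, whereas AT1G08310 showed the same difference between the sets as the phosphate genes. AT4G23000, a calcineurin-like phosphoesterase, had 23.9, 25.2, 11.4 and 9.44 CPM untreated, 3.94, 5.16, 2.86 and 3.63 CPM at 3 h and 25.9, 23.5, 5.61 and 6.22 CPM at 24 h. SPD1 (AT3G10420), a P-loop hydrolase needed for plastid development in seedlings, had 169, 224, 107 and 89.9 CPM untreated, 47.6, 54.4, 41.2 and 46.3 CPM at 3 h and 187, 128, 72.3 and 72.2 CPM at 24 h. The 24 h difference of AT4G23000 was 0.01 in the set without the note and -0.72 in the set with it, and that of SPD1 was -0.33 and -0.44. AT3G06070, an uncharacterized protein, had 23.4, 33.8, 43.6 and 38.02 CPM untreated, 12.3, 8.87, 8.13 and 12.9 CPM at 3 h and 34.7, 26.6, 33.8 and 32.97 CPM at 24 h, with no overlap between 3 h and the other times. AT1G72890, a TIR-NBS resistance protein, had 14.1, 15.4, 8.44 and 8.49 CPM untreated, 4.18, 3.71, 2.41 and 2.54 CPM at 3 h and 19.9, 14.7, 6.04 and 4.55 CPM at 24 h. AT2G04460, uncharacterized, had 9.63, 14.1, 5.03 and 4.89 CPM untreated, 3.41, 4.37, 1.05 and 0.727 CPM at 3 h and 11.01, 12.2, 3.62 and 3.76 CPM at 24 h. For AT1G72890 the 3 h libraries were below all other Col-0 libraries.

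Among members with high counts, AT4G35750, a SEC14-type lipid transfer protein, had 203, 236, 209.8 and 185 CPM untreated, 78.3, 99.6, 88.9 and 107 CPM at 3 h and 179, 193, 159 and 182 CPM at 24 h. The non-coding gene AT4G13495 had 147, 136, 146 and 203 CPM untreated, 111, 85.2, 56.9 and 64.9 CPM at 3 h and 229, 203, 125 and 93.9 CPM at 24 h, and its 24 h difference was 0.61 in 1 set and -0.66 in the other; it overlaps 3 other annotated genes. The type-A cytokinin response regulators contributed 3 members and the clock 3, which are counted and not described. Of the 101 members, 81 were on none of the lists.

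**Figure D3:**
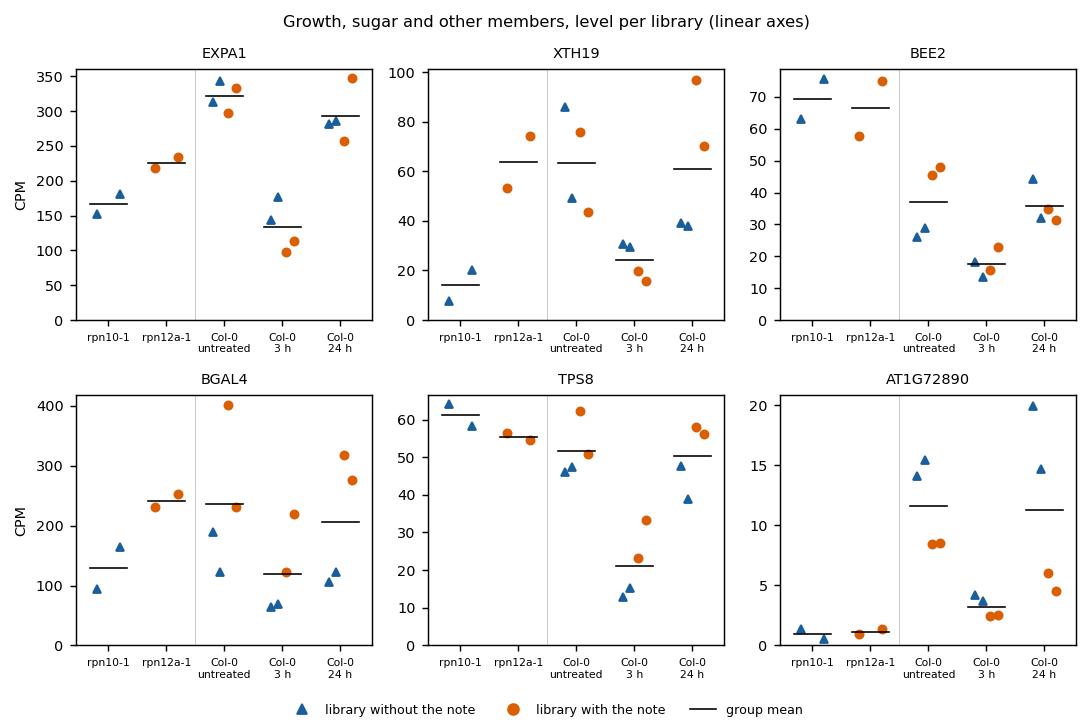
Level in CPM (vertical, linear, from 0) of 6 members outside the phosphate group in each library, drawn as for the phosphate genes. All but BGAL4 have every 3 h library below every untreated Col-0 library, XTH19 is low in rpn10-1 and not in rpn12a-1, and AT1G72890 is low in both mutants.

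Membership rested in part on which libraries were averaged. In both sets taken singly, 100 of 101 members were lower at 3 h, 48 fell by at least 1 in both, 40 were within the 24 h band in both and 23 met every limit in both. With only the libraries without the note 100 genes met the rule, 50 of them members, and with only those with the note 192 did, 38 of them members.

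The mutants received no MG132 and were not used by the rule, but both are compared with the same untreated Col-0 libraries, which the rule did use. In rpn10-1 against untreated Col-0, 41 members were called lower and 7 higher, 40.6% and 6.93% of members, against 11.5% and 11.4% of the genes tested; the members' median log2 fold change was -0.56 and that of all genes 0.01. In rpn12a-1, 5 members were called lower and 2 higher, against a background of 2.26% and 2.64%, with a median of -0.23 against -0.01 for all genes. The 8 phosphate members were all called lower in rpn10-1, at a median of -2.31, and none was called in rpn12a-1, at a median of -0.53. Low levels in rpn10-1 were not particular to members. Of the 12 tested phosphate list genes that were not members, 10 were called lower in rpn10-1 and none higher, at a median of -2.77. In rpn12a-1, 1 of these 12 was called lower and none higher, at a median of -0.57.

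The phosphate members had a median difference from untreated Col-0 of -0.90 on the log2(CPM + 1) scale in rpn10-1 replicate 1 and -2.25 in replicate 2. Without replicate 1, 38 members were called lower (5.59% of all genes), and without replicate 2, 43 were (10.4%); all 8 phosphate members were among them both times, at median log2 fold changes of -3.15 and -1.80. Of the 48 members called with both libraries, 35 were called without replicate 1 and 39 without replicate 2. The part of the plastid, mitochondrial and root marker values in these sizes was not tested.

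The rpn10-1 libraries all lack the note and the rpn12a-1 libraries all carry it, while untreated Col-0 has 2 libraries in each set, so that each mutant can be compared with Col-0 of its own set. In that comparison rpn10-1 had 43 members lower (background 13.9%), with all 8 phosphate members at a median of -2.33, and rpn12a-1 had 8 lower (background 3.34%), among them 1 phosphate member, PS2, at a median of -0.48 over the 8. With all 4 Col-0 libraries and no term for the set, 15 members were called lower and 3 higher in rpn10-1 (background 6.8% and 6.09%) and 4 lower and 1 higher in rpn12a-1 (background 2.01% and 2.2%). None of the 8 phosphate members was called in either mutant then, although their median was -1.72 in rpn10-1 and -1.43 in rpn12a-1. The SE was larger in that fit, as for PS2 in rpn10-1, at -3.68 ± 1.60 without the term and -4.59 ± 0.65 with it. Against Col-0 of the other set, a fit chosen after seeing the data that adds the difference between the Col-0 sets to that of the mutant, rpn10-1 had 14 members lower (background 6.11%) and no phosphate member called, at a median of -0.69, and rpn12a-1 had 38 lower (background 8.41%) with all 8 phosphate members, at a median of -2.06. No set holds both mutants, so any difference between them rests on the set difference measured in Col-0.

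Both mutants had low levels of phosphate members. SPX1 had 76.9 and 31.1 CPM in rpn10-1 and 35.9 and 62.95 CPM in rpn12a-1, against 188, 245, 82.5 and 82.5 CPM in untreated Col-0. PS2 had 13.9 and 1.66 CPM in rpn10-1 and 3.09 and 7.67 CPM in rpn12a-1, against 139, 211, 14.7 and 14.9 CPM in untreated Col-0. PAP17 had 57.4 and 25.2 CPM in rpn10-1 and 45.5 and 73.6 CPM in rpn12a-1, against 222, 276, 83.4 and 81.9 CPM in untreated Col-0. In these 3 genes all mutant libraries were below all untreated Col-0 libraries, and the mutants overlapped each other. Counted over levels alone, both rpn10-1 libraries were below all 4 untreated Col-0 libraries in 31 members (16.5% of all genes tested) and in 6 of 8 phosphate members, and both rpn12a-1 libraries in 32 members (16.8% of all genes) and 7 of 8 phosphate members. The log2 fold changes with the set term were -2.28 ± 0.34 for SPX1 and -4.59 ± 0.65 for PS2 in rpn10-1 (edgeR adjusted p = 0.000294 and 0.000191), and -0.53 ± 0.31 and -1.36 ± 0.58 in rpn12a-1 (adjusted p = 0.429 and 0.243). In rpn10-1 they were -3.05 and -6.82 without replicate 1, and -1.79 and -3.81 without replicate 2.

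Among the named members outside the phosphate group that were followed in both mutants, 3 were called lower in both under every alternative run. AT1G72890 had 1.397 and 0.553 CPM in rpn10-1 and 0.914 and 1.33 CPM in rpn12a-1, against 14.1, 15.4, 8.44 and 8.49 CPM in untreated Col-0. Its log2 fold change was -4.06 ± 0.37 in rpn10-1 (edgeR adjusted p = 3.14e-06) and -2.74 ± 0.34 in rpn12a-1 (adjusted p = 0.000121), and no mutant library approached an untreated one. AT5G37990, a methyltransferase of the S-adenosylmethionine-dependent superfamily, had 0.2095 and 0.461 CPM in rpn10-1 and 0.628 and 0.414 CPM in rpn12a-1, against 14.2, 19.98, 3.997 and 4.07 CPM in untreated Col-0. Its log2 fold changes were -5.60 ± 0.56 (edgeR adjusted p = 7.07e-06) and -3.15 ± 0.49 (adjusted p = 0.000919). AT2G30540 had 3.702 and 2.21 CPM in rpn10-1 and 2.51 and 3.49 CPM in rpn12a-1, against 13.3, 13.5, 10.14 and 12.97 CPM in untreated Col-0, and log2 fold changes of -2.36 ± 0.26 (edgeR adjusted p = 2.01e-05) and -1.80 ± 0.25 (adjusted p = 0.000301). In these 3 genes neither mutant overlapped Col-0. PERK15, a receptor-like kinase, had 4.61 and 4.42 CPM in rpn10-1 and 5.94 and 6.34 CPM in rpn12a-1, against 16.5, 16.7, 18.7 and 23.1 CPM in untreated Col-0; its call in rpn12a-1 was lost without either rpn12a-1 library (adjusted p = 0.0643 and 0.0617).

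Other members were called in rpn10-1 and not in rpn12a-1. PPCK1 had 12.4 and 5.898 CPM in rpn10-1 and 41.3 and 30.9 CPM in rpn12a-1, against 66.8, 79.3, 41.6 and 35.2 CPM in untreated Col-0, and was called lower in rpn10-1 at -3.13 ± 0.34 (edgeR adjusted p = 1.74e-05) under all alternatives. In rpn12a-1 its log2 fold change was 0.01 ± 0.29, and the difference between the mutants, rpn12a-1 minus rpn10-1, was 3.14 ± 0.39 (edgeR adjusted p = 0.000229), which was not called without the set term (adjusted p = 0.0843). XTH19 had 7.75 and 20.2 CPM in rpn10-1 and 53.4 and 74.4 CPM in rpn12a-1, against 85.8, 49.3, 75.7 and 43.4 CPM in untreated Col-0, with -2.20 ± 0.50 in rpn10-1 (edgeR adjusted p = 0.00616) and 2.18 ± 0.59 between the mutants (adjusted p = 0.0403). Its call in rpn10-1 was lost without rpn10-1 replicate 1 (adjusted p = 0.0833), and that between the mutants without any 1 of the mutant or untreated Col-0 libraries other than rpn10-1 replicate 2, at adjusted p from 0.052 to 0.206, and in the untreated groups alone (0.0516). In both genes the rpn10-1 libraries were below every other untreated library. EXPA1 had 152 and 182 CPM in rpn10-1 and 219 and 234 CPM in rpn12a-1, against 313, 344, 298 and 334 CPM in untreated Col-0, and was called lower in rpn10-1 (-1.09 ± 0.22, edgeR adjusted p = 0.00302). BEE2 went the other way. It had 63.1 and 75.6 CPM in rpn10-1 and 57.9 and 74.9 CPM in rpn12a-1, against 26.1, 28.9, 45.6 and 48.1 CPM in untreated Col-0, and was called higher in rpn10-1 (1.03 ± 0.22, edgeR adjusted p = 0.00512), but not against Col-0 of the other set (adjusted p = 0.0778). AT4G13495 had 701 and 297 CPM in rpn10-1 and 192 and 191 CPM in rpn12a-1, against 147, 136, 146 and 203 CPM in untreated Col-0; it was called higher in rpn10-1 (1.34 ± 0.33, edgeR adjusted p = 0.00968), but not without rpn10-1 replicate 1, at 0.63 (adjusted p = 0.253). The mutants were not shown to differ from each other in EXPA1, BEE2 or AT4G13495, where rpn12a-1 over rpn10-1 was 0.67 ± 0.27, -0.30 ± 0.28 and -0.87 ± 0.41 (edgeR adjusted p = 0.141, 0.543 and 0.209).

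In rpn12a-1 the 2 members called higher were AT2G04460, with 4.33 and 0.645 CPM in rpn10-1 and 17.997 and 24.9 CPM in rpn12a-1 against 9.63, 14.1, 5.03 and 4.89 CPM in untreated Col-0, and ORP4C, an oxysterol-binding protein relative, with 6.77 and 26.8 CPM in rpn10-1 and 51.7 and 62.7 CPM in rpn12a-1 against 15.9, 13.1, 25.8 and 16.6 CPM in untreated Col-0. The AT2G04460 call (2.29 ± 0.39, edgeR adjusted p = 0.00192) was lost without the set term (1.34, adjusted p = 0.319), under the replicate block (0.68, 0.334), against Col-0 of the other set (0.80, 0.271) and in the untreated groups alone (2.15, 0.0789). In rpn10-1 AT2G04460 was called lower (-2.41 ± 0.47, edgeR adjusted p = 0.00234). Between the mutants, rpn12a-1 over rpn10-1, it stood at 4.70 ± 0.56 (edgeR adjusted p = 0.00016). Those last 2 fold changes were not followed through the alternatives. The ORP4C call (1.37 ± 0.37, edgeR adjusted p = 0.0444) was lost without any 1 of the rpn12a-1 or untreated Col-0 libraries, at adjusted p from 0.0588 to 0.264, and in the untreated groups alone (0.191). The non-coding gene AT3G57157 had 2.17 and 1.01 CPM in rpn10-1 and 1.49 and 1.29 CPM in rpn12a-1, against 16.6, 15.4, 2.96 and 4.48 CPM in untreated Col-0; its call in rpn12a-1 (-1.74 ± 0.43, edgeR adjusted p = 0.0275) was lost without either rpn12a-1 library, at 0.143 and 0.252, and without untreated Col-0 replicates 1, 2 or 4, at 0.0504 to 0.0611. PAP14 had 2 counts in the rpn10-1 libraries together, and since its Col-0 level was near 0 in the libraries with the note, no fold is given. Between the mutants, 15 members were called higher and 2 lower in rpn12a-1 than in rpn10-1, against a background of 3.85% and 2.46%; the counts were 2 and 0 without the set term (background 2.37% and 1.32%), and fell to 8 and 4 calls without rpn12a-1 replicate 1 and replicate 2.

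**Figure D4:**
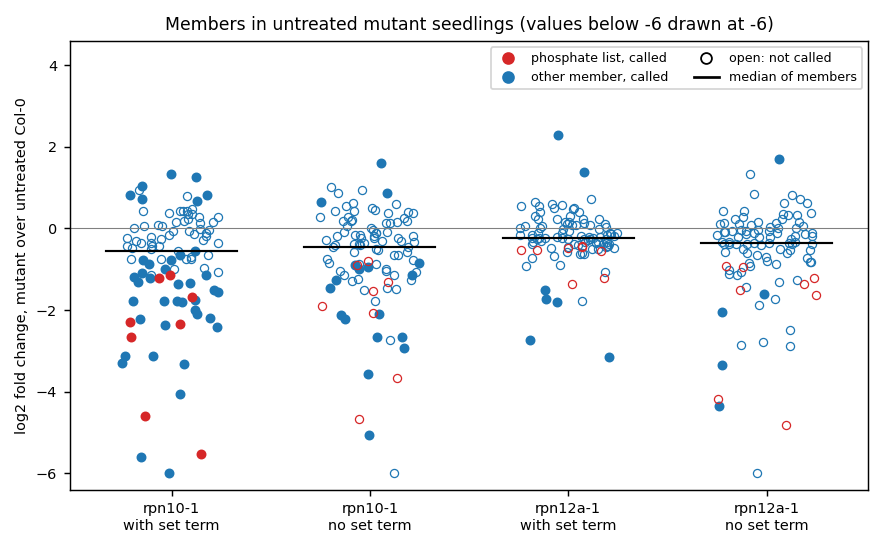
Log2 fold change of each of the 101 members in untreated rpn10-1 and rpn12a-1 over untreated Col-0 (vertical), from the model with and without the library set term; filled points passed the threshold, red points are the 8 phosphate members, lines are medians and values below -6 are drawn at -6. The phosphate members are filled only in rpn10-1 with the set term, and the medians lie below 0 in all 4 columns.

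Several features that the rule did not use were counted in the members, as description. In the annotation's descriptions, the words phosphatase or phosphoesterase stood in 8 of 101 members (7.92%), against 1.65% of eligible genes. These are matches of words, which include the synthase-like TPS8 and leave out SRG3. By such words, basic helix-loop-helix and ERF/AP2 factors made up 3 members each (2.97%), against 0.45% and 0.26% of eligible genes. The 3 ERF/AP2 genes were CRF8, WRI4 and ESE3, all found by the annotation's word Integrase-type. The 3 basic helix-loop-helix genes were HBI1, AT4G01460 and BEE2. Of these, BEE2 was found only by the added search words BR enhanced, which stand in its own name. Nothing is therefore read from the basic helix-loop-helix share. Eligible ERF/AP2 genes described in other words may have gone uncounted, so nothing is read from that share either. No member was described as an F-box protein or as a RING or U-box protein, classes that made up 0.67% and 1.91% of eligible genes. At such small shares few such genes would be found among 101, so nothing is read from their absence. The median transcript length was 1658 bases in members and 1809 in eligible genes, with a median of 4 exons and 5 exons. Only 2 pairs of members were near neighbours: AT1G72890 and AT1G72920 with 2 genes between them, and AT5G56850 and BGAL4 with 1 gene between. Bases were shared with another annotated gene by 29 members, in 26 cases on the other strand.

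Of 12 motifs searched on both strands in the 300 bases from 250 before to 50 after the start, P1BS (GNATATNC) was found in 24 members (23.8%), in 6.25% of eligible genes and in 6.08% of all 37897 nuclear genes. It stood in 4 of the 8 phosphate members and in 20 of the other 93 (21.5%). In the 250 upstream bases alone the shares were 19.8% of members and 5.46% of eligible genes, and in 1000 upstream bases, a window added after seeing the data, 40.6% and 20.1%. The members with a match had a median 3 h difference of -1.27, and those without -1.17; their median log2 fold changes in rpn10-1 were -1.44 and -0.37. PS2 had its match at -217, SRG3 at -127 and -63, PAP14 at -151 and -114, PPCK1 at -27 and XTH19 at -151 from the start, as in the sequences shown above.

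Other motifs differed less. TATCCA, known from sugar-responsive promoters, was in 26.7% of members and 16.6% of eligible genes, and every such match is also a GGATA match, found in 41.6% and 34.1%. The E-box CATGTG was in 22.8% and 12.7%, and the core of the evening element, AATATCT, in 18.8% and 11.6%. The G-box CACGTG, each match of which is also an ACGTG match, was in 8.91% and 8.99%, and ACGTG in 21.8% and 27.6%. The telo box core AACCCTA was in 2.97% and 8.17%, TGGGCC in 14.9% and 20.4%, TGTCTC or TGTCGG in 19.8% and 18.5%, AGATTC or AGATTT in 48.5% and 50.0%, and GAANNTTC in 16.8% and 11.3%. These are matches of letters in a window and are not evidence of binding.

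**Figure D5:**
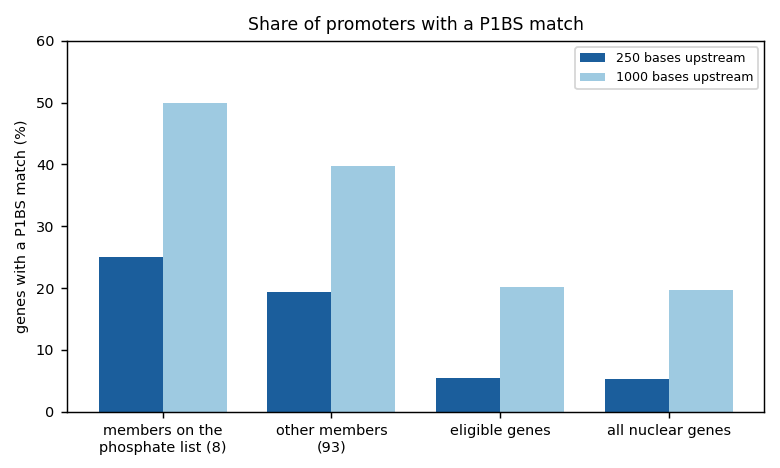
Share of genes (vertical, percent, from 0) with a P1BS match in the 250 or 1000 bases upstream of the start. The bars stand at 25% and 50% for members on the phosphate list, 19.4% and 39.8% for other members, 5.46% and 20.1% for eligible genes and 5.23% and 19.7% for all nuclear genes.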

How the data were processed

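The submitters' processing notes name TAIR10 and the tools edgeR, HTSeq, Bowtie2, TopHat and Trimmomatic for the authors' own processing, without roles. Versions, strand setting and the handling of multiply mapped reads: not given in the sources used here. Raw read counts per gene were deposited by the authors, 1 table per library with the same 33602 genes and no normalization; libraries were made from poly(A) RNA with a TruSeq v2 kit, per the labels' protocols. CPM were computed here from the deposited counts and the library totals, and the 101 members follow from them by the rule stated above. The members and the gene lists were chosen with earlier results of these data known.

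For tests, filterByExpr and TMM of edgeR 4.0.16 (R 4.3.3) were applied to all 16 libraries, and a quasi-likelihood F-test was fitted with group and library set as terms, two-sided, adjusted by Benjamini and Hochberg over 21205 genes at 0.05. The SE of a log2 fold change is its absolute value divided by the square root of F, which is approximate near 0. The fit and the rule were tested on simulated counts. No libraries were duplicates: replicates differed by a chi-square of 8.17 to 73.7 per degree of freedom. Alternatives included DESeq2 1.42.0. Genes named were the 16 largest falls, the 8 highest untreated CPM, up to 4 members per list, up to 8 members per mutant with the smallest p, genes next to each limit and up to 3 other genes per list; others are marked as chosen after their values were seen. Annotation, motif windows and sequences come from RefSeq's TAIR10.1, in which all 101 members were found.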

Additional observations from a re-analysis of the deposited data

Results flagged for a closer look

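Over 30 named members in 3 Col-0 groups of 4 libraries, 90 groups were examined for a single library far from the other 3, and 2 stood out. The rule's chance rate of about 1 in 20 holds for 4 libraries of a kind, whereas each group held 2 libraries of each set. Where the sets differ, a single library can hardly be flagged, so the count of 2 does not show that the libraries were even. In untreated Col-0, replicate 3 of AT2G30540 was low at 10.14 CPM, where the other 3 libraries ran from 13.0 to 13.5 CPM. In untreated Col-0, replicate 4 of AT4G13495 was high at 203 CPM, where the other 3 ran from 136 to 147 CPM. AT2G30540 is called lower in both mutants without this library as well.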

How the results depend on the processing

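The number of genes that met the rule was 65 with DESeq2 size factors and 192 with only the libraries with the note, against 101, and 73 to 118 under the other 8 alternatives; without any 1 Col-0 library it was 82 to 133, of which 62 to 93 were members. Calls in rpn10-1 numbered 48, and 18 without the library set term, 17 against the other Col-0 set and 40 to 48 without any 1 library. Calls in rpn12a-1 numbered 7, and 17 with no filter on low counts, 4 in the untreated groups alone, 43 against the other Col-0 set and 4 to 6 without any 1 library (4 without either rpn12a-1 library). Calls between the mutants numbered 17, and 43 with no filter, 2 without the set term and 4 to 19 without any 1 library. Genes called in the whole table kept within 1.5 times, at 2666 to 3533 at 3 h and 3852 to 6317 at 24 h without any 1 library. The cause of these shifts was not tested. Of 39 fold changes of named genes followed through the alternatives, 36 kept their sign in each alternative run. In rpn12a-1 that of PPCK1, at 0.01, was -0.64 without the set term, -1.14 with the replicate block (edgeR adjusted p = 0.0343), -0.045 in the untreated groups alone, -0.030 within its own set, -1.08 against the other Col-0 set (adjusted p = 0.0256) and -0.22 to 0.23 without any 1 library. At 3 h those of PHT1;1 and PAP22, neither called, ran from -0.045 to 0.47 and from -0.16 to 0.50 without any 1 library.

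Replicate numbers were not shown to pair the libraries: of 26 same-numbered pairs, 12 correlated above 0.1, over a range of -0.23 to 0.56. Between untreated and 3 h Col-0, same-numbered pairs ran from 0.31 to 0.56. There, differently numbered pairs of the same set ran from 0.41 to 0.52. The set difference is part of these values, so they cannot decide whether the numbers pair libraries. A fit with the replicate number as a block in place of the set called 34 members in rpn12a-1, 31 of them lower (5.20% of all genes), 44 in rpn10-1, 38 of them lower (9.97%), and 7 between the mutants (4.33% of all genes in either direction); the rpn12a-1 libraries share their numbers with Col-0 replicates 1 and 2, which are of the other set.

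Counts per library limit the least abundant members, and 2 libraries per mutant limit every mutant comparison.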
